A study of Mus musculus with 36 samples.

Results

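Gastrocnemius and plantaris are neighbouring plantar flexors of the mouse hindlimb, both in the posterior compartment of the lower leg, and their RNA was compared here in wild-type mice only. The comparison took every wild-type array of either muscle by its label, 4 of gastrocnemius and 3 of plantaris, 7 of the 36 arrays of the series. The series was built around a mouse model of nemaline myopathy, a disease of the thin filament, and measured 5 skeletal muscles of wild-type mice and of mice carrying an alpha tropomyosin slow transgene on Affymetrix MG_U74Av2 arrays. Gastrocnemius was sampled at 7 months (arrays GAS-n7 and GAS-n7-2) and at 10 months (GAS-n10 and GAS-n10-2), and plantaris at 7 months (PLT-n7 and PLT-n7-2) and at 10 months (PLT-n10). The muscles were snap frozen and untreated, and each array received total RNA pooled from 3 to 5 mice. No source used here states the strain, which heads of gastrocnemius were taken or whether the same mice gave both muscles. The scan record of GAS-n7 notes female mice of 6 months, whereas its label says 7. The transgenic arrays of the same muscles (4 and 3, named GAS-t and PLT-t) served as a second set of samples; the form and promoter of their transgene are not given.

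A skeletal muscle is a mixture of slow and fast fibres. Slow fibres carry slow isoforms of myosin, troponin and the calcium pump and burn fat and sugar in mitochondria, and fast fibres carry fast isoforms and rely more on glycogen and glycolysis. Rodent gastrocnemius and plantaris are both largely fast muscles with some slow fibres. Besides fibre type, a limb muscle keeps a record of where it formed, since homeobox and other patterning genes mark positions along the body and the limb during development.

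Signals are MAS5 intensities scaled so that each array has a trimmed mean of 500, and differences are plantaris minus gastrocnemius on the log2(signal + 50) scale, with age in the model. Skeletal muscle genes were among the brightest on all 7 arrays, with signals of 37513 to 71491 for Acta1, skeletal alpha actin, and 30876 to 63894 for Myh4, the myosin heavy chain of fast IIb fibres. Pitx1, the homeobox gene that marks the hindlimb, had signals of 121 to 326 on the 7 arrays. On each array 59.3 to 65.7% of probe sets reached a signal of 100. The ratio of the 3' to the 5' probe set of Gapdh, a sign of RNA quality, was 3.32 on GAS-n10-2 and 3.69 on PLT-n7-2 and 0.91 to 1.39 on the other 5 arrays. The 2 arrays with the high ratio are 1 of each muscle, and values without them are given below. GAS-n7 and PLT-n7 were scanned on the same day, as were GAS-n10 and PLT-n10, and the other 3 arrays have no recorded day.

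The 2 muscles differed past the threshold in 6 genes. Of 9666 probe sets tested with limma, 7 passed a Benjamini-Hochberg adjusted p of 0.05 (0.0724%). Zic1 was higher in plantaris, and Hoxd8, Six2, Mybph, Actc1 and Ighm were lower. An unadjusted p under 0.05 was reached by 375 probe sets, 207 higher and 168 lower in plantaris. The median difference over all probe sets was -0.01. Correlations of log2 signals between arrays of the 2 muscles, 0.855 to 0.955, covered the range found within gastrocnemius, 0.856 to 0.951. Within plantaris the range was narrower, 0.930 to 0.950. Differences between diaphragm and each limb muscle gave 910 to 1200 calls in the same fit, and those between pairs of limb muscles 3 to 27.

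Of the patterning genes, Zic1 was higher in plantaris and Hoxd8 and Six2 were lower. Zic1 encodes a zinc finger transcription factor of early patterning. Its signal was 13.4, 9.69, 5.36 and 21.0 on GAS-n7, GAS-n7-2, GAS-n10 and GAS-n10-2, and 257, 312 and 259 on PLT-n7, PLT-n7-2 and PLT-n10. All 4 gastrocnemius arrays lay far under 100, the signal used here as the lowest of interest, and all 3 plantaris arrays well over it. The log2 difference was 2.35 ± 0.30 (estimate ± SE, adjusted p = 0.00155), and its size depends on the pseudocount because gastrocnemius is near the bottom of the scale, ranging from 1.14 to 3.33 over the alternatives.

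Hoxd8, a homeobox gene of the HoxD cluster that takes part in patterning along the body axis, went the other way. Its brighter probe set read 1780, 2600, 1197 and 1849 on the gastrocnemius arrays in the same order and 410, 535 and 403 on the plantaris arrays. The lowest gastrocnemius array was above the highest plantaris array. The log2 difference was -1.90 ± 0.29 (adjusted p = 0.0130), and a second Hoxd8 probe set gave -1.80 (adjusted p = 0.0240). Six2, a homeobox factor of the sine oculis family, read 2015, 3130, 2150 and 2253 in gastrocnemius and 922, 317 and 682 in plantaris, again without overlap. Its log2 difference was -1.95 ± 0.34 (adjusted p = 0.0240), the plantaris arrays spreading more widely than for Hoxd8.

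The other patterning genes tested did not pass and did not share a sign. Of 30 tested genes of a list of homeobox and T-box genes (38 on the array), which also held Zic1 and Hoxd8, 15 had a positive difference and the median was -0.00, as over all 6988 genes tested (50.2% positive, median 0.00). The neighbours of Hoxd8 in the HoxD cluster, named here after their values were seen, had differences of -0.72 (Hoxd9) and -0.83 (Hoxd10) that did not pass, with overlapping arrays. Tbx15 had 0.58 and Pitx1 0.46, also overlapping.

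Both sarcomere genes that passed were lower in plantaris. Mybph encodes myosin binding protein H, a thick filament protein of the A band. It read 1538, 2075, 1752 and 2134 in gastrocnemius and 454, 463 and 541 in plantaris, a narrow spread in both muscles. The log2 difference was -1.83 ± 0.22 (adjusted p = 0.00155), a 3.55-fold lower level on this scale. Actc1 encodes cardiac alpha actin, which skeletal muscle makes before birth and largely replaces with Acta1 afterwards. Its dimmer probe set, taken up after its values were seen, read 2861, 4372, 1318 and 2222 in gastrocnemius and 433, 720 and 379 in plantaris. Groups did not overlap, and the log2 difference was -2.27 ± 0.39 (adjusted p = 0.0240). The brighter probe set of the gene did not overlap either but missed the threshold, at -1.38 ± 0.30 (adjusted p = 0.198). By their suffixes the brighter Actc1 probe set and that of Ighm may also bind RNA of related genes. The suffix of the dimmer Actc1 probe set marks an incomplete set of unique probes. Acta1 itself had -0.31 (adjusted p = 1.0).

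**Figure D1:**
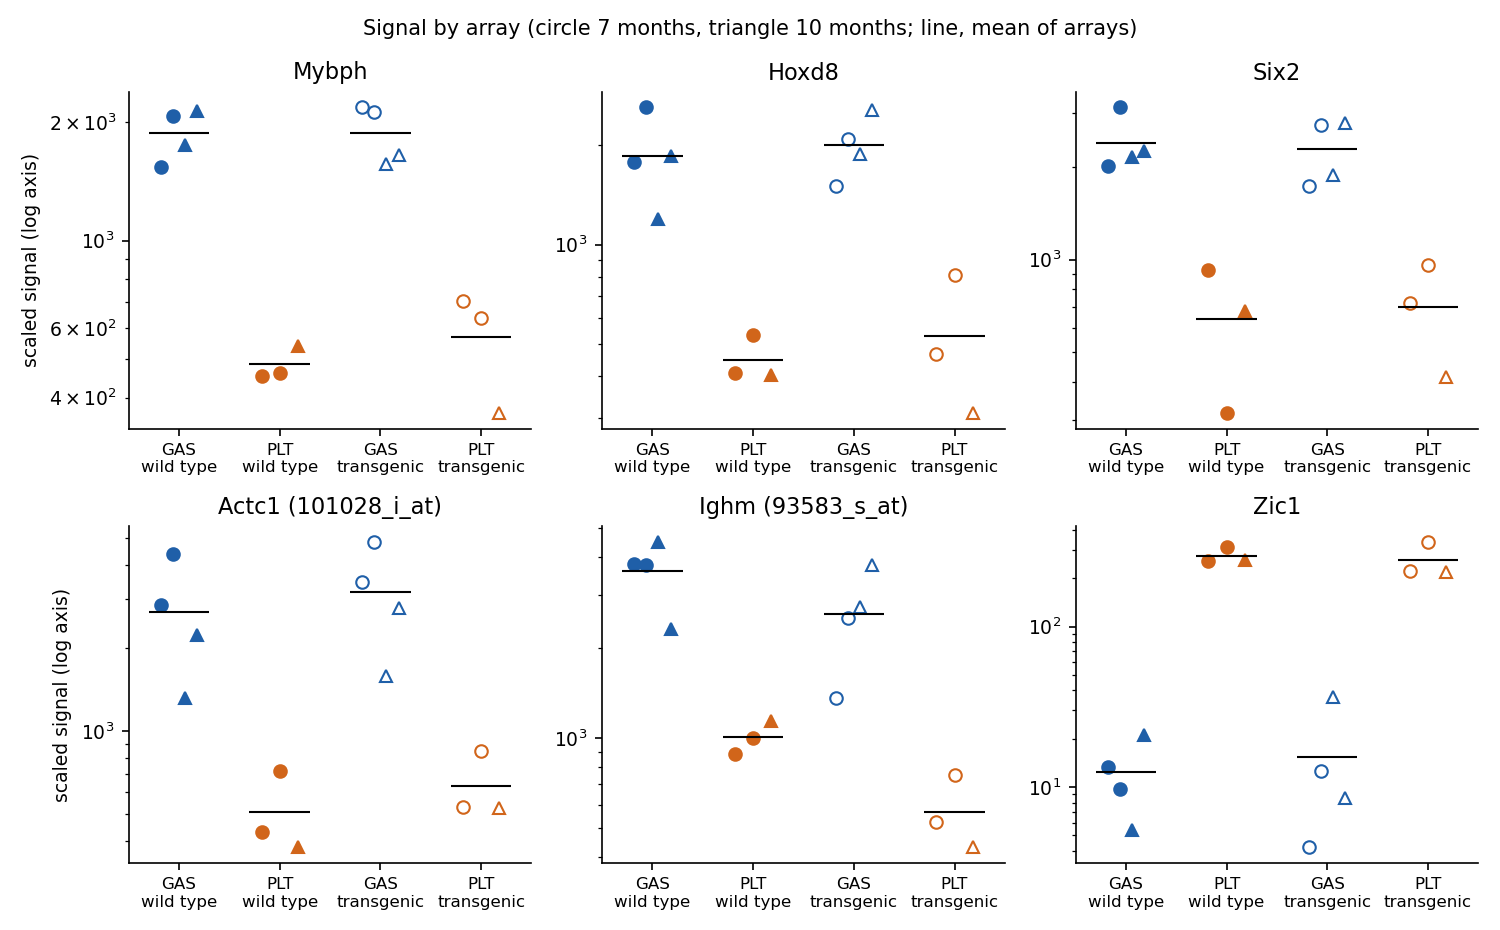
Scaled signal (log axis) of the 6 genes with a probe set past the threshold on the wild-type (filled) and transgenic (open) arrays of gastrocnemius (GAS, blue) and plantaris (PLT, orange), with circles for 7 and triangles for 10 months and a line at the mean. The 2 muscles do not overlap for any of the 6 genes in wild type, nor in the transgenic arrays.

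Start regions are shown for Mybph and Actc1, muscle filament genes that were lower together in plantaris. Zic1 and Hoxd8, patterning genes that differed in opposite directions, are shown too, to set their sequence beside the values. The regions come from RefSeq (GRCm38.p6) and run from 250 bases before to 50 after the annotated start. Of the 6 genes 5 are in that table, and the window of Six2 is described below but not printed. Capitals mark every match to the E-box CANNTG, the motif read by MyoD family and other helix-loop-helix factors, or to the CArG box, the motif read by serum response factor, on either strand (an E-box reads the same on both). The lines give the gene, its region, its strand and its sequence.
Mybph, chr1:134193198-134193497, plus strand: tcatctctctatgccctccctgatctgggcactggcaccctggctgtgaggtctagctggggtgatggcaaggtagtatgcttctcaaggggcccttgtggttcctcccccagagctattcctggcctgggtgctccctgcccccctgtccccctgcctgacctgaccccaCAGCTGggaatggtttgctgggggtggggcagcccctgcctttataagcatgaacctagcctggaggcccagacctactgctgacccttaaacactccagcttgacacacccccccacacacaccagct
Actc1, chr2:114052826-114053125, minus strand: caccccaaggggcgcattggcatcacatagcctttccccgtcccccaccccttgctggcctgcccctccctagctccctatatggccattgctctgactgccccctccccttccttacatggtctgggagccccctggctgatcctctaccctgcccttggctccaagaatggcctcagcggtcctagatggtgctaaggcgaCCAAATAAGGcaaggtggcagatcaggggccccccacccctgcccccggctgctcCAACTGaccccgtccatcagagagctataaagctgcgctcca
Zic1, chr9:91365719-91366018, minus strand: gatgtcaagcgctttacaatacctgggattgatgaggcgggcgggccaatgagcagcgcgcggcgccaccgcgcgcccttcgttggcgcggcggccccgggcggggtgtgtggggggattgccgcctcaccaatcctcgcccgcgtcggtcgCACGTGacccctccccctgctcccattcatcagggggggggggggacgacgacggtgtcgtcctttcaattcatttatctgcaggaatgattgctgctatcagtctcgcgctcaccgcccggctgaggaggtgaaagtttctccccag
Hoxd8, chr2:74704365-74704664, plus strand: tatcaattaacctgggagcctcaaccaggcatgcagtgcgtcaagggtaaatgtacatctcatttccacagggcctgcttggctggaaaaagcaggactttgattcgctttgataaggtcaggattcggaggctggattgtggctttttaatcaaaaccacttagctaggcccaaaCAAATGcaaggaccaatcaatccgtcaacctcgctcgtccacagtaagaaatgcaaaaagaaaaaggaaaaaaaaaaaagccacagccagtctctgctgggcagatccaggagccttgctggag
Each of these 4 windows holds 1 E-box, which 72.3% of the 32851 windows of the table also hold. The Six2 window, not printed, holds 0 E-boxes and 0 CArG boxes, with a GC content of 67.3%. The Actc1 window holds 1 CArG box, found in 1.63% of windows, starting 47 bases before the annotated start. The sequence TATAAA, searched on either strand, is on the printed strand of the Actc1 window and on the opposite strand of the Mybph window, where the printed letters read tttata (13.6% of all windows hold it), and in neither the Zic1 nor the Hoxd8 window. Relative to the annotated start, the match begins at position 34 in Actc1, after the start, and at position -39 in Mybph. GC content is 61.0% for Mybph, 62.7% for Actc1, 65.3% for Zic1 and 46.7% for Hoxd8, against a median of 52.7%. A match is a description of the letters and not evidence that a factor binds there.

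Ighm, the constant region of the IgM heavy chain made by B cells and plasma cells, was lower in plantaris. Its signal was 3787, 3773, 4509 and 2302 in gastrocnemius and 884, 996 and 1136 in plantaris. The log2 difference was -1.72 ± 0.29 (adjusted p = 0.0240). A second Ighm probe set had -1.81 (adjusted p = 0.198), and of 9 Ighm probe sets tested 8 were negative and 1 was positive, at 0.17. All 7 tested genes of the lymphocyte list were negative, with a median of -0.42, but only Ighm passed. The median was -0.22 without GAS-n7 and -0.73 on the arrays with a scan record. Jchain, which joins IgM units, had -0.83, and the B cell receptor genes Cd79a and Cd79b had -0.41 and -0.12, with overlapping arrays. The summed signal of the 7 genes was 3903 to 6097 in gastrocnemius and 1800 to 1946 in plantaris; Ighm made up the most of any of the 7 genes on each array. Igkv6-23, a variable region of the kappa light chain, had a difference of -3.60 ± 0.82 that did not pass (adjusted p = 0.202): it read 3209 and 3059 on GAS-n7 and GAS-n10-2, 197 and 167 on the other gastrocnemius arrays and 18.3 on average in plantaris. Fewer cells of a type and less RNA per cell cannot be told apart in whole muscle, here and for the other cell type markers.

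Genes of slow and fast fibres leaned in opposite directions by small amounts, and only Mybph passed. Each of the 14 tested slow fibre genes had a positive difference, with a median of 0.49, which was 0.32 without GAS-n7 and 0.21 on the 3 arrays without a scan record. Of those 3 arrays only PLT-n7-2, which had a high Gapdh ratio, was of plantaris. Of the 17 tested fast fibre genes 15 were negative, with a median of -0.26, which was -0.09 after quantile normalization and -0.10 on the arrays with a scan record. At an unadjusted p under 0.05 there were 5 slow fibre genes higher and 0 lower, and 2 fast fibre genes lower, Mybph and Actn3, and 0 higher. The same threshold gave 2.36% higher and 1.53% lower of all 6988 genes.

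Among slow isoforms, Tnni1, slow troponin I, read 6397, 12243, 11381 and 8865 in gastrocnemius and 12765, 15444 and 14717 in plantaris. The plantaris arrays were all higher, and the difference was 0.61 ± 0.24 (adjusted p = 1.0). Tnnt1, slow troponin T, had 0.52 ± 0.24, Tnnc1, the slow and cardiac troponin C, 0.48 ± 0.47, and Atp2a2, the slow fibre calcium pump, 0.50 ± 0.33. Of the slow myosin chains, Myh7 had 0.23 ± 0.33, Myl2 0.10 ± 0.28 and Myl3 0.51 ± 0.34. Of the tropomyosins, Tpm2 had 0.60 ± 0.20, Tpm3, which encodes the slow alpha form, 0.22 ± 0.35 and Tpm1 0.00 ± 0.24. None of them passed.

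Among fast isoforms, Actn3, the alpha actinin of fast glycolytic fibres, read 34366, 44989, 31120 and 37237 in gastrocnemius and 22851, 26547 and 24340 in plantaris. Groups did not overlap, with a difference of -0.61 ± 0.22 (adjusted p = 1.0). Its relative Actn2 had 0.74 ± 0.28 with overlapping arrays. Myosin heavy chains ran from slow to fast as 0.23 for Myh7, 0.36 ± 0.22 for Myh1 (type IIx) and -0.46 ± 0.29 for Myh4 (type IIb). Both Myh1 and Myh4 were without overlap, and a second Myh4 probe set had 0.64. Pvalb, the calcium buffer of the fastest fibres, had -0.34 ± 0.21, Atp2a1, the fast calcium pump, -0.33 ± 0.23 and Tnnc2, fast troponin C, -0.27 ± 0.25. Mylpf, Tnnt3 and Tnni2 had -0.32, -0.18 and -0.01.

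The posterior pair was set beside an anterior pair, extensor digitorum longus (3 arrays) and tibialis anterior (4 arrays), which share no array with it. Extensor digitorum longus minus tibialis anterior gave 15 calls among the same 9666 probe sets (0.155%), 11 higher and 4 lower, and 7 of them were slow fibre genes. Myh7 differed by 4.52, Tnnt1 by 4.48, Tnnc1 by 4.39, Myl2 by 4.05, Atp2a2 by 3.02, Tnni1 by 2.80 and Tpm3 by 2.56 in that pair. Myl3, also a slow myosin chain, differed by only 0.03 ± 0.34 there. Mean Myh7 signal was 390 in tibialis anterior and 9191 in extensor digitorum longus, and it was 18371 in gastrocnemius and 22408 in plantaris. The difference between the 2 pairs, a contrast added after the values were seen, passed for 7 probe sets (0.0724%): Myh7, Myl2, Tnnt1, Tnnc1, Tnni1 and Atp2a2, all smaller in the posterior pair, and a probe set of Atf3. For Tnnt1 it was -3.96 ± 0.33 (adjusted p = 5.6e-06) and for Atp2a2 -2.52 ± 0.46 (adjusted p = 0.0421). A second Tnnt1 probe set had -0.61 ± 0.42 and a second Myh7 probe set 0.07 ± 0.54, and neither passed. With the replicate number as a block this contrast gave 13 calls, the 6 slow fibre genes among them. Without PLT-n7 it gave 4, with 3 of the 6, and without both arrays of high Gapdh ratio 4, all of them among the 6.

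Of the 7 probe sets called in the posterior pair, 4 had the same direction in the anterior pair, and 1, that of Ighm, passed in both. Ighm was lower in extensor digitorum longus than in tibialis anterior by 2.09 on the log2 scale (adjusted p = 0.00118). Zic1 had a mean of 16.3 in tibialis anterior and 154 in extensor digitorum longus, a difference of 1.46 ± 0.30 (adjusted p = 0.0719). The difference between the pairs did not pass for any of the 6 genes, with adjusted p-values of 0.117 for Mybph, Hoxd8 and Six2 and 1.0 for Zic1 and Ighm. In diaphragm, Hoxd8 and Six2 had means of 365 and 261, in the range of the 3 other limb muscles or below, and gastrocnemius had the highest mean of the 5 muscles for Mybph, Hoxd8 and Six2.

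**Figure D2:**
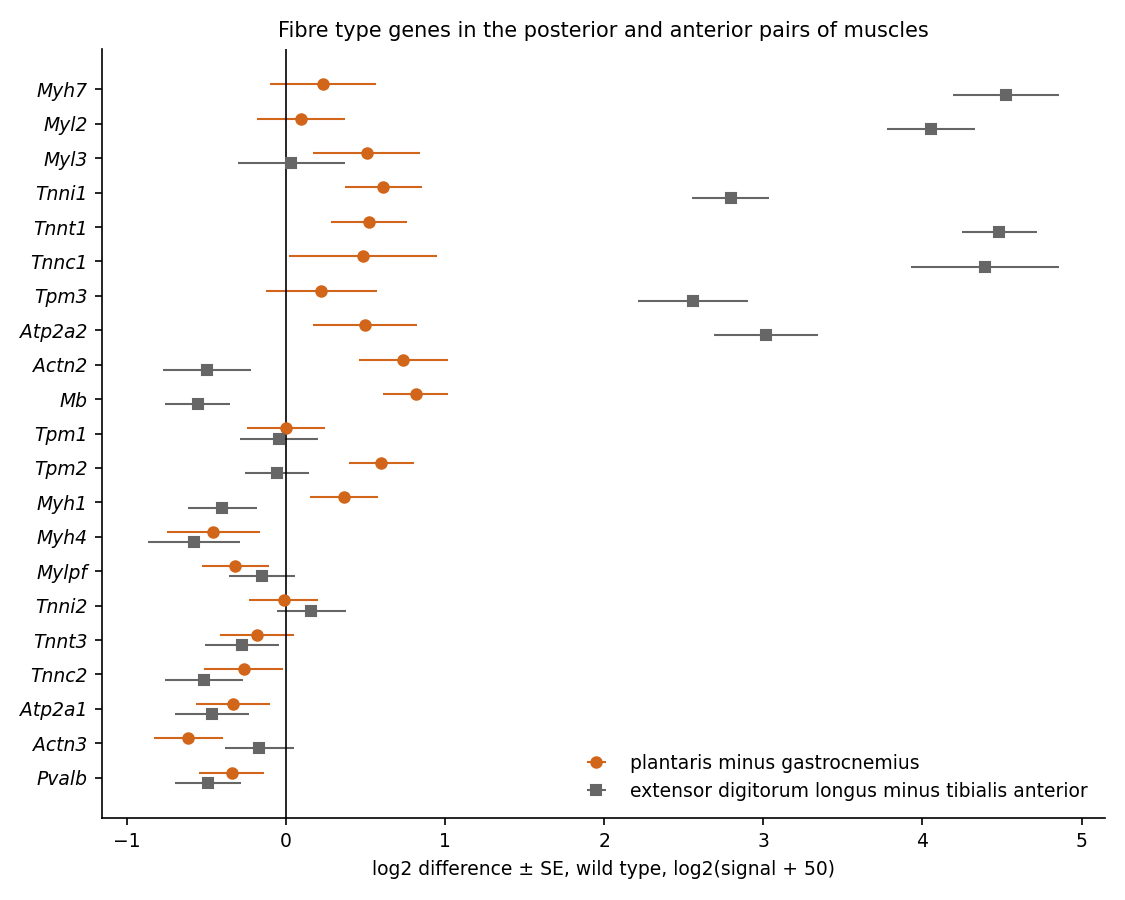
Log2 difference ± SE of 21 fibre type genes in wild type, for plantaris minus gastrocnemius (orange circles) and extensor digitorum longus minus tibialis anterior (grey squares). The slow isoforms Myh7, Myl2, Tnni1, Tnnt1, Tnnc1, Tpm3 and Atp2a2 lie between 2.56 and 4.52 in the anterior pair and between 0.10 and 0.61 in the posterior pair. The slow isoform Myl3 lies at 0.03 in the anterior pair and at 0.51 in the posterior pair.

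Genes of fat use were higher on the plantaris arrays as a group, although none passed over all probe sets. Of 21 tested genes of fatty acid uptake and oxidation 20 had a positive difference, the median was 0.54, and 10 reached an unadjusted p under 0.05 (2.36% of all genes were higher at that level). The median was 0.35 on the arrays with a scan record. In 9 of them the 2 muscles did not overlap, and over all genes plantaris lay wholly above gastrocnemius in 3.95% and wholly below in 2.79%. Lpl, the lipase that frees fatty acids from circulating lipoproteins, read 6333, 5104, 6198 and 5277 in gastrocnemius and 9289, 11328 and 9435 in plantaris. The gap between the groups was larger than the spread within either, at 0.80 ± 0.18 (adjusted p = 0.198), and a second Lpl probe set had 0.43. Hadhb, a subunit of the mitochondrial trifunctional protein of beta oxidation, had 0.60 ± 0.25. Slc25a20, the carnitine and acylcarnitine carrier, named after its values were seen, read 1535 to 1840 in gastrocnemius and 2751 to 2838 in plantaris.

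Mitochondrial genes leaned the same way by less. Of 33 oxidative phosphorylation genes 30 were positive (median 0.26), with 4 higher at an unadjusted p under 0.05 and 0 lower. Of 17 citrate cycle genes 15 were positive (median 0.27, 3 higher and 0 lower). Over all genes 2.36% were higher and 1.53% lower at that level. The citrate cycle median was 0.17 without GAS-n10-2 and 0.16 without both arrays of high Gapdh ratio. The oxidative phosphorylation median was 0.15 on the arrays without a scan record, of which only PLT-n7-2 was of plantaris. The brightest of these genes hardly differed, with 0.06 for Ndufb5, a subunit of complex I, and -0.01 for Cox6a2, a muscle subunit of complex IV. Mb, the oxygen store myoglobin, read 11892, 19727, 14742 and 14154 in gastrocnemius and 24949, 27136 and 26190 in plantaris. Its difference was 0.82 ± 0.20 (adjusted p = 0.340), without overlap.

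Glycolysis and glycogen genes did not share a sign. Of 22 tested 7 were positive and the median was -0.25, or -0.06 after quantile normalization, -0.11 without PLT-n7-2 and -0.14 without GAS-n10. Plantaris lay wholly below gastrocnemius in 8 of them and wholly above in 4 (2.79% and 3.95% of all genes). At an unadjusted p under 0.05 there were 4 higher and 1 lower (2.36% and 1.53% of all genes). Ldha, the lactate dehydrogenase of fast muscle, had -0.34 ± 0.19 without overlap, and Aldoa, aldolase A, -0.30 ± 0.25. Members with the opposite sign included Gbe1, the glycogen branching enzyme, which read 430, 351, 552 and 212 in gastrocnemius and 852, 820 and 1018 in plantaris (1.19 ± 0.27, adjusted p = 0.198). Ldhb, the heart form of lactate dehydrogenase, and Hk2, hexokinase 2, named after their values were seen, had 0.77 and 0.66. Pfkfb3, which makes the activator of phosphofructokinase, had -1.36 ± 0.33 (adjusted p = 0.299).

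**Figure D3:**
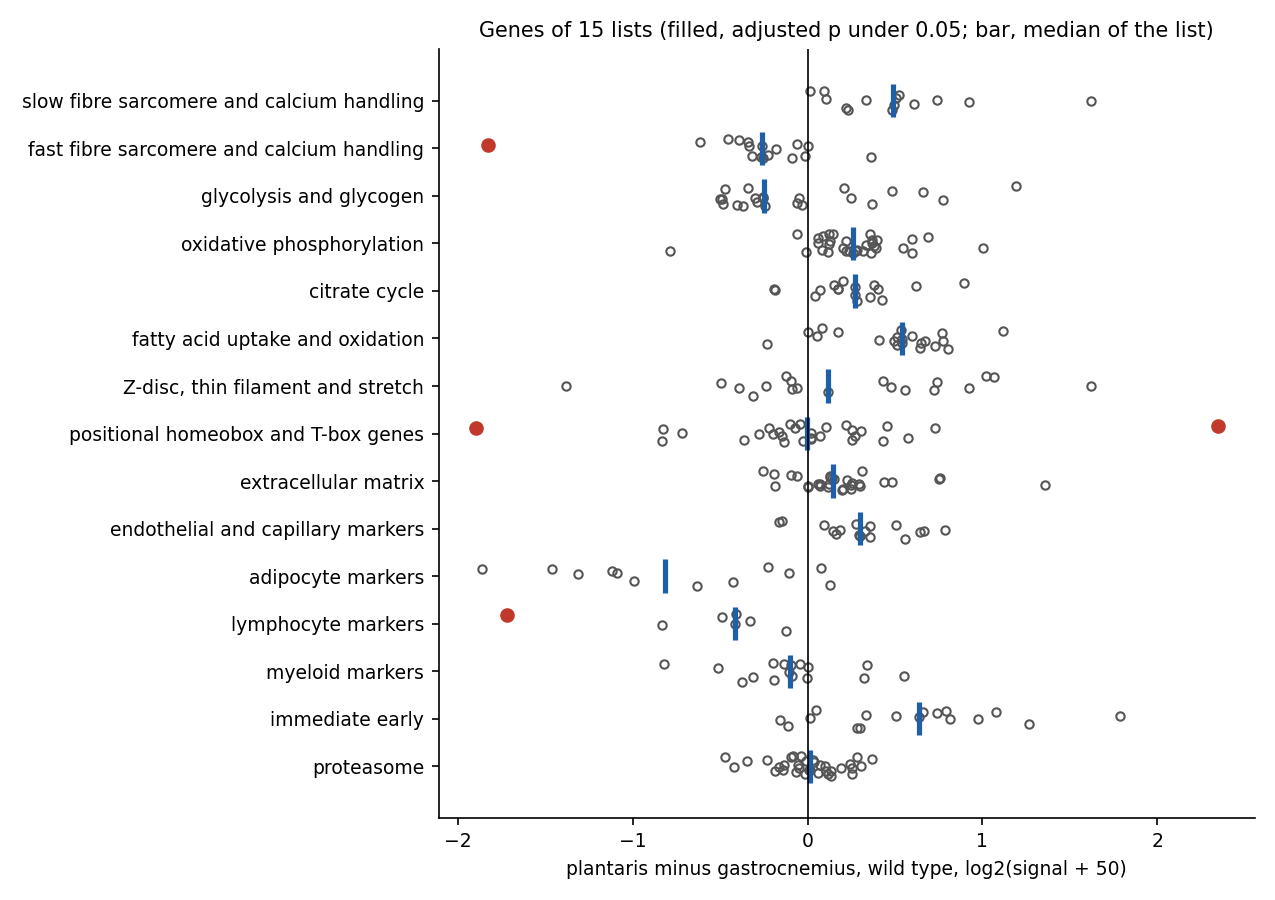
Plantaris minus gastrocnemius log2 difference of each tested gene in 15 lists, with genes past the threshold filled red and a blue bar at the median of the list. Slow fibre and fatty acid genes lie mostly to the right of 0 (medians 0.49 and 0.54), and adipocyte markers mostly to the left (median -0.81).

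The other genes named for the smallest unadjusted p-values did not pass either. Csrp3, the stretch sensor muscle LIM protein, read 1128 to 2205 in gastrocnemius and 2487, 8408 and 5363 in plantaris, a difference of 1.62 ± 0.36 (adjusted p = 0.198). Frzb, a secreted Wnt antagonist, had means of 61.8 and 301, a difference of 1.76 ± 0.40. Ramp1, a partner of the receptor for calcitonin gene-related peptide, had 1.09 ± 0.23 and Wfs1, a protein of the endoplasmic reticulum, 1.04 ± 0.26. Ptges, a prostaglandin E synthase, was at a mean of 254 in gastrocnemius and 61.1 in plantaris, with -1.44 ± 0.33. Each of these 5 was without overlap. Of 19 Z-disc, thin filament and stretch genes, 10 were positive, with 7 higher and 1, Actc1, lower at an unadjusted p under 0.05. Over all genes 2.36% were higher and 1.53% lower at that level. Cacng1, a subunit of the calcium channel of the transverse tubule, had -0.69 ± 0.27.

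Adipocyte markers were lower on the plantaris arrays on average. Of 12 tested 10 were negative, the median was -0.81 and 6 reached an unadjusted p under 0.05, but none passed. Over all genes 1.53% were lower at that unadjusted level. Adipoq, adiponectin, named after its values were seen like the other adipocyte genes here except Scd1, read 5222, 1807, 2659 and 1290 in gastrocnemius and 469, 1241 and 1235 in plantaris. Retn, resistin, read 748, 399, 429 and 306 against 12.9, 181 and 142. GAS-n7 was the highest array and PLT-n7 the lowest for both genes, and the pair shared a scan day. Scd1, a desaturase of fat synthesis, had -1.12 ± 0.52 with overlapping arrays. The summed signal of the list was 21953 to 46801 in gastrocnemius and 18219 to 23848 in plantaris. The median of the list was -0.26 on the arrays without a scan record, of which only PLT-n7-2 was of plantaris. It was -1.24 on the arrays with a scan record. Adipocyte markers and fatty acid genes thus had opposite signs, and the part of fat in the other differences was not tested.

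Immediate early genes, which respond within minutes to stress and handling, were higher on the plantaris arrays as a group without a call. Of 17 tested 15 were positive, the median was 0.64, 7 reached an unadjusted p under 0.05 and 6 did not overlap. Over all genes 2.36% were higher at that level, and plantaris lay wholly above gastrocnemius in 3.95%. Fos, named after its values were seen, read 317, 1155, 307 and 762 in gastrocnemius and 1420, 3721 and 1489 in plantaris. Nr4a1, an orphan nuclear receptor gene of the same class, had 0.66 ± 0.36 with overlapping arrays. In the anterior pair the list had the opposite sign, with a median of -0.41 and 2 of 17 positive.

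The remaining lists held no call. Medians were 0.15 for 30 extracellular matrix genes (25 positive), 0.28 for 9 tendon genes (9 positive) and 0.30 for 17 endothelial genes (15 positive). Col1a1, a chain of type I collagen, had 0.76 ± 0.31 without overlap, and Aqp1, a water channel of endothelium, 0.36 ± 0.28, with -1.06 at a second probe set. They were -0.10 for 16 myeloid genes, 0.06 for 9 nerve and Schwann cell genes, 0.22 for 5 erythroid genes, -0.07 for 8 keratinocyte genes and -0.12 for 17 hepatocyte genes. Denervation and atrophy genes had a median of 0.13, neuromuscular junction genes 0.06, myogenic regulators -0.03, membrane excitability genes -0.27, heat shock genes 0.20, proteasome genes 0.01, clock genes 0.09 and 3 sex-linked genes 0.29. Some of these medians moved by over 1.5 times with 1 array left out: to 0.18 without GAS-n10 and 0.45 without GAS-n7-2 for tendon, to between -0.41 (without GAS-n7-2) and -0.08 (without PLT-n10) for membrane excitability and to 0.07 without PLT-n10 for heat shock genes. Those of the denervation, myeloid, erythroid, hepatocyte and sex-linked lists moved by as much without at least 1 array, and none of these changed sign. With 1 array left out other medians did change sign: to -0.04 for nerve and Schwann cell, 0.03 for keratinocyte and -0.04 for clock genes. Proteasome genes and myogenic regulators reached -0.05 and 0.01. The hepatocyte median was 0.07 without both arrays of high Gapdh ratio. Pmp22, a myelin protein, had 0.75 ± 0.28 with overlapping arrays, and summed nerve and Schwann cell signal was 2450 to 3985 in gastrocnemius and 3055 to 5374 in plantaris.

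**Figure D4:**
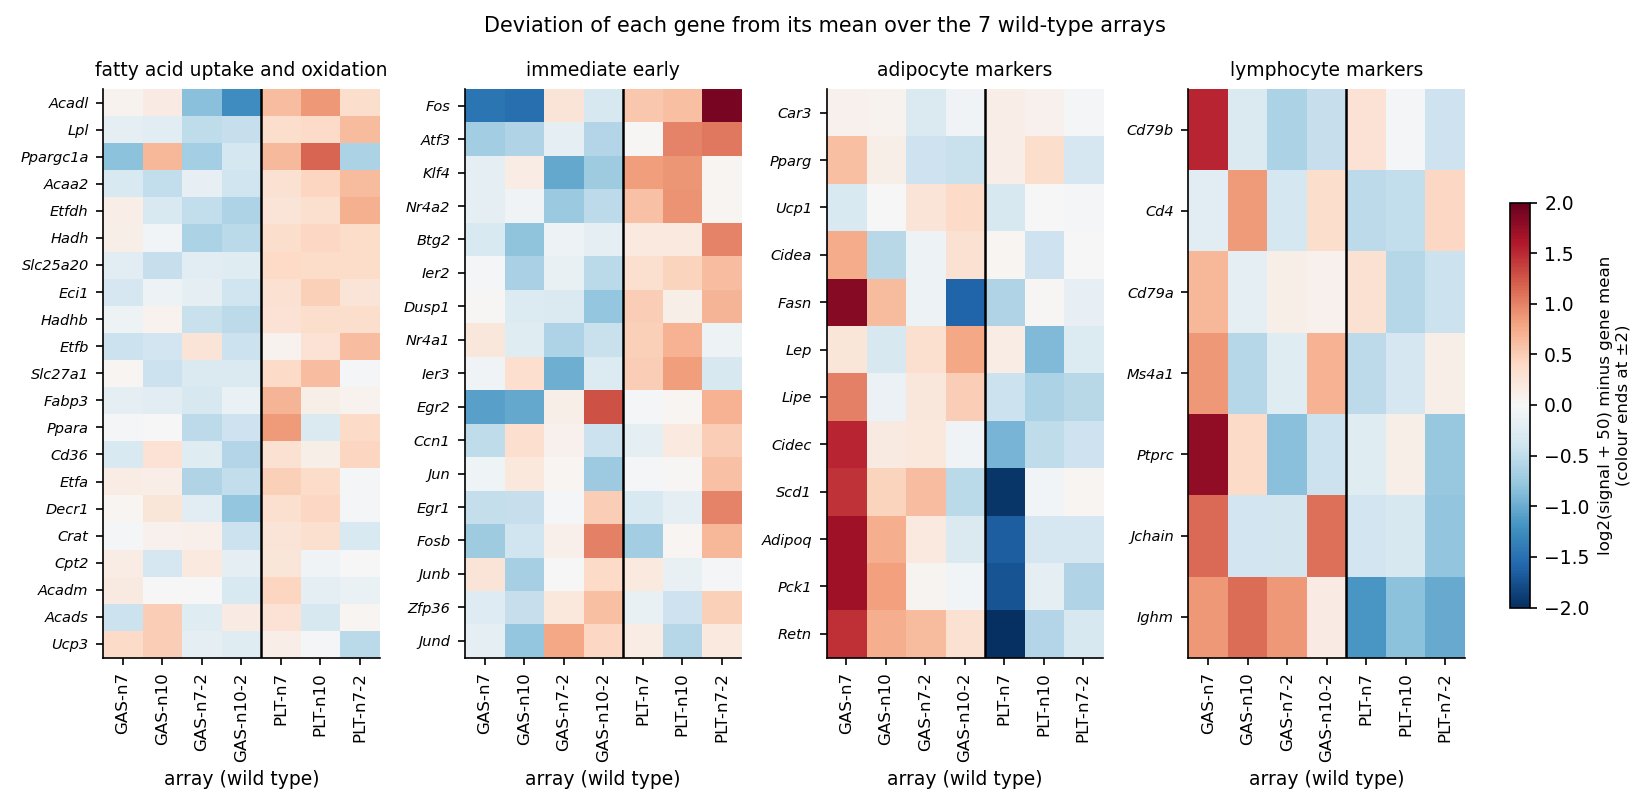
Deviation of each gene's log2(signal + 50) from its mean over the 7 wild-type arrays (red higher, blue lower, colour ending at ±2), for 4 lists, with gastrocnemius arrays left and plantaris arrays right of the line. Lpl, Slc25a20 and Hadhb are red on each of the 3 plantaris arrays, and Adipoq, Pck1, Retn and Scd1 have their extremes on GAS-n7 and PLT-n7.

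The same muscles of transgenic mice, which share no array with the wild-type ones, gave 21 calls among 9077 probe sets (0.231%), 8 higher and 13 lower in plantaris. A block for replicate number raised this count to 41. All 7 wild-type calls had the same direction there and 6 of them passed. The transgenic log2 differences were 2.26 for Zic1 (adjusted p = 0.00311), -1.88 for Hoxd8 (adjusted p = 0.00409), -1.67 for Six2 (adjusted p = 0.0176), -1.72 for Mybph (adjusted p = 0.00581) and -2.21 for the dimmer Actc1 probe set (adjusted p = 0.00564). Ighm had -1.99 (adjusted p = 0.0667), while its second probe set passed at -2.16 (adjusted p = 0.00564). Zic1 read 4.2 to 36.2 on the 4 transgenic gastrocnemius arrays and 219 to 338 on the 3 plantaris arrays. All 21 transgenic calls had the same direction in wild type. Gbe1 at 1.27 (adjusted p = 0.0207), Frzb at 1.89 (adjusted p = 0.0207) and Pmp22 at 1.32 (adjusted p = 0.00409) were among those that missed the threshold in wild type.

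Of the 356 probe sets at an unadjusted p under 0.05 in wild type that were also tested in transgenic arrays, 329 (92.4%) had the same direction there, against 67.7% of the 8931 tested in both. The test of the difference between genotypes, over all 36 arrays, passed for 0 of 10070 probe sets (0.0%) with limma, and 103 had an unadjusted p under 0.05. For the lists, transgenic medians were 0.61 for slow fibre, -0.31 for fast fibre, 0.47 for fatty acid and 0.38 for immediate early genes, and -0.38 for adipocyte and -0.67 for lymphocyte markers. For oxidative phosphorylation the transgenic median was 0.08.

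**Figure D5:**
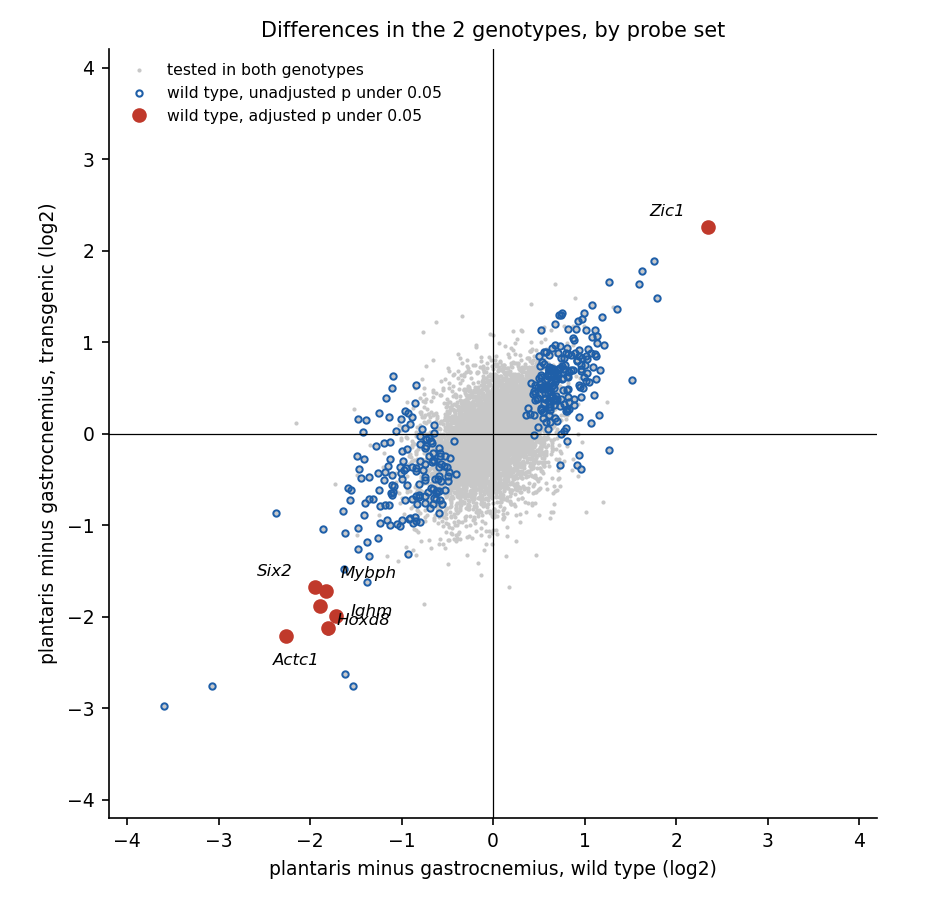
Plantaris minus gastrocnemius log2 difference in wild-type (horizontal) and transgenic arrays (vertical) for each probe set tested in both, with those at an unadjusted p under 0.05 in wild type circled blue and the 7 past the threshold in red. All 7 lie in the quadrants of equal sign.

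Arrays of the 2 muscles did not overlap for the called genes. The sign of a difference within a scan day was thus fixed, and only its size is informative. PLT-n7 minus GAS-n7 and PLT-n10 minus GAS-n10 were -1.66 and -1.61 for Mybph, 2.27 and 2.48 for Zic1, -1.99 and -1.46 for Hoxd8, -1.09 and -1.59 for Six2, -2.59 and -1.67 for the dimmer probe set of Actc1 and -2.04 and -1.94 for Ighm. PLT-n7-2 minus GAS-n7-2, both without a recorded day, was -3.12 for Six2 and between -1.87 and -2.52 for the other genes lower in plantaris. With scan day as a block, an alternative added after the data were seen, 30 probe sets passed, and all 7 wild-type calls were among them. Without the 2 arrays of high Gapdh ratio 3 passed, those of Mybph (-1.75), Zic1 (2.42) and Ighm (-2.0), each with adjusted p = 0.0343. Hoxd8 then had -1.99 at its brighter probe set (adjusted p = 0.0899), Actc1 -2.47 (adjusted p = 0.127) and Six2 -1.47 (adjusted p = 0.489). When 1 of the 7 arrays was left out, Mybph and Zic1 passed each time. The brighter Hoxd8 probe set passed in 3 of 7 cases, and Ighm, Actc1 and Six2 in 1 of 7.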

How the data were processed

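The authors deposited linear signal intensities for 36 arrays, made with MAS5 according to the submitters' processing notes. The trimmed means of the deposited arrays, 1500.93 to 1501.29, show that the authors scaled them to a shared target. The version of MAS5 is not stated.

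Here the 2% trimmed mean of every array was set to 500, and log2(signal + 50) was analysed. Of 12488 probe sets 66 controls were left out, and the 9666 that reached 100 on at least 3 of the 18 wild-type arrays were tested. Symbols came from the array's annotation, updated by gene ID (10817 of 10833 probe sets with 1 symbol matched). Among the tested ones, 8585 named 1 gene, 328 several and 753 none. For each gene the probe set brightest on average over the wild-type arrays was used.

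The model in limma 3.58.1 (R 4.3.3) had 1 mean per muscle and an additive age effect over the 18 wild-type arrays, with an intensity trend in the variance and Benjamini-Hochberg adjustment over all probe sets. Transgenic arrays were fitted the same way, and the difference between genotypes on all 36. The labels do not say whether arrays of a group came from separate mice, so p-values measure the spread between arrays, whose number limits precision. The code was tested on simulated data.

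Genes were named by rule: up to 15 past the threshold in each direction, filled to 8 by the smallest unadjusted p; 22 fibre type genes always; and in each of 27 lists up to 4 called members or else the 2 brightest. Genes outside the rule are marked. The muscles, lists and rule were chosen with earlier results of these data known. Deviations within groups of 2 correlated over 0.1 in 28 of 28 pairs of wild-type groups (lowest 0.193, median 0.358). Replicate numbers were therefore taken to pair arrays, from the data and not the labels. The fit as reported held no block for replicate number. All arrays of replicate 1 have a scan record and those of replicate 2 have none. A pairing of arrays and this split of the arrays cannot be told apart. Alternatives were quantile normalization, other pseudocounts, filters, age terms, array weights, blocks for replicate number and scan day, and subsets of arrays.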

Additional observations from a re-analysis of the deposited data

Results flagged for a closer look

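Of 83 values checked for an array far from the others of wild-type gastrocnemius, 1 was found, and chance gives about 1 in 20. Mt2, metallothionein 2, had a signal of 2829 on GAS-n10-2, an array with a high Gapdh ratio, against 1178, 1203 and 1230 on the other gastrocnemius arrays.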

How the results depend on the processing

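For plantaris versus gastrocnemius in wild type, 7 calls in the fit as reported, the count was 8 after quantile normalization, 5 with all 36 arrays and 9 with the replicate block, which lost no call. It was 4 with no intensity trend, 24 with array weights, 15 with a block by title code, 38 with scan day as a random block and 30 with it as a fixed block, 3 without the arrays of high Gapdh ratio, and 2 to 5 with 1 array left out. A fit of the 2 muscles alone gave 0 calls in limma (362 at an unadjusted p under 0.05, smallest adjusted p 0.0639). So did 7 months alone (217), an age effect for each muscle (166) and arrays with a scan record (274). An age effect for each muscle, also used with all 36 arrays, makes the contrast of 2 muscles that at 7 months. Among arrays without a record, plantaris and extensor digitorum longus have 1 array each per genotype, so no count is given. The count was 2 without GAS-n7, GAS-n7-2 or PLT-n10, 3 without PLT-n7-2 and 4 without PLT-n7. No call changed direction under any alternative, though arrays that do not overlap leave little room for a change of sign.

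For extensor digitorum longus versus tibialis anterior (15 calls) the count was 5 at 7 months alone and with an age effect for each muscle, 6 on arrays without a record, 23 with the replicate block by title code and 28 with a random scan day. For transgenic arrays (21 calls) it was 10 with all 36 arrays, 0 at 7 months, 1 with an age effect for each muscle and 35 with weights. The count was 41 with the replicate block and with scan day as a block, 51 by title code and 53 with a random scan day. It was 1 to 14 with 1 array left out, the lowest without PLT-t10. The difference between genotypes gave 0 calls under every alternative. The difference between the 2 pairs (7 calls) gave 13 with the replicate block, 4 without the arrays of high Gapdh ratio and 4 to 10 with 1 array left out. Precision is limited by the number of arrays, and signals under 100 have no reliable order.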
